A study of Mus musculus with 7 samples.

Results

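The genes described here are the aminoacyl-tRNA synthetases together with the transcription factor Atf4 and the amino acid and stress genes linked to it. The list names 40 genes, of which 23 are tRNA synthetases and 17 are other genes of the pathway, among 18194 genes named on the array. Each gene was read from its probe set with 1 gene symbol and the highest mean over the 7 arrays. Such a probe set was found for 38 of the 40. Dars and Pycr1 had none under those symbols and were not analysed here, and Mars was found under its newer symbol Mars1. Of the 38, 29 passed the filter on dim genes (log2 expression of at least 5 on at least 2 arrays) and were tested among 8203 genes. These 29 lay at log2 5 or more on all 7 arrays, so none entered the test through a single group.

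Aminoacyl-tRNA synthetases join each amino acid to its tRNA, the step before the ribosome can use it. When amino acids run short or the endoplasmic reticulum is stressed, kinases phosphorylate the initiation factor eIF2, overall translation falls, and translation of the Atf4 message rises. ATF4 protein, paired with a C/EBP partner, then switches on genes for amino acid synthesis, amino acid import and tRNA charging. In T cells activated by antigen this set of genes is known to supply material for growth and division. Because ATF4 is controlled largely at translation, the level of its RNA is not a measure of its activity.

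RNA came from OT-I cells, mouse CD8 T cells with a transgenic receptor for a chicken ovalbumin peptide, which were taken as CD44lo Ly5.1 cells, labelled with the division dye CFSE and transferred into C57BL/6 strain hosts. RIP-OVAhi cells (n = 2) had divided at least 2 times by 60 h in hosts that make ovalbumin under the rat insulin promoter, a model of deletional tolerance, and were sorted from sacral and pancreatic lymph nodes of 20 mice per array. OCS/LPS cells (n = 2) had divided at least 2 times by 60 h in spleens of hosts primed with splenocytes coated with ovalbumin plus lipopolysaccharide. Rag cells (n = 1) had divided at least 2 times in 5 days in spleens of Rag-/- hosts, where a lack of lymphocytes drives division. Naive cells (n = 2) stayed undivided for 60 h in spleens of B6 hosts without the antigen. OCS/LPS, Rag and naive arrays held cells of 10 mice each. Tissue and group coincide for RIP-OVAhi and cannot be told apart, and the same holds for time and group in Rag. Whether the pools of a group were made in separate experiments is not stated in the labels. The p-values therefore cover the spread between these arrays and nothing more, and that spread may be technical.

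The 7 arrays had median log2 values of 2.97 to 3.08, with 33.7% to 34.5% of probe sets reaching log2 5. Across genes the correlation of the replicates was r = 0.991 for both RIP-OVAhi and OCS/LPS and r = 0.975 for naive. All 7 CD8 T cell markers with a probe set were at log2 5 or more on every array, and Cd4 stayed near background, under log2 5. The Gapdh control probe sets, whose 3′ minus 5′ difference grows as RNA is degraded or shortened in amplification, gave 2.08 and 2.03 in RIP-OVAhi cells, 1.85 and 1.89 in OCS/LPS cells, 2.21 in Rag, and 2.59 and 2.43 in naive. Below, a gene is said to have risen, fallen or been called when its adjusted p in limma, after Benjamini-Hochberg adjustment over all 8203 genes, was under 0.05. Differences are on the log2 scale, and SE is limma's moderated standard error.

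In OCS/LPS cells 10 of the 29 tested members were called against naive cells, 9 higher and 1 lower. Over all tested genes 32.9% were called in this comparison, 20.5% higher and 12.3% lower. In RIP-OVAhi cells 5 members were called against the same naive arrays, 4 higher and 1 lower, where 29.6% of all tested genes were called, 18.1% higher and 11.6% lower. The members' shares were 34.5% in OCS/LPS and 17.2% in RIP-OVAhi, so the first lay near the background and the second below it. The median difference of the 29 members was 0.20 in RIP-OVAhi and 0.30 in OCS/LPS, beside 0.06 and 0.08 over all tested genes. In OCS/LPS the arrays stood clear above naive for 19 members, beside 39.4% of all tested genes, and in RIP-OVAhi for 14, beside 37.0%. Psat1 had the largest difference of the 29 in both comparisons. These are bulk samples, in which fewer cells using a gene and less RNA per cell cannot be told apart.

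**Figure D1:**
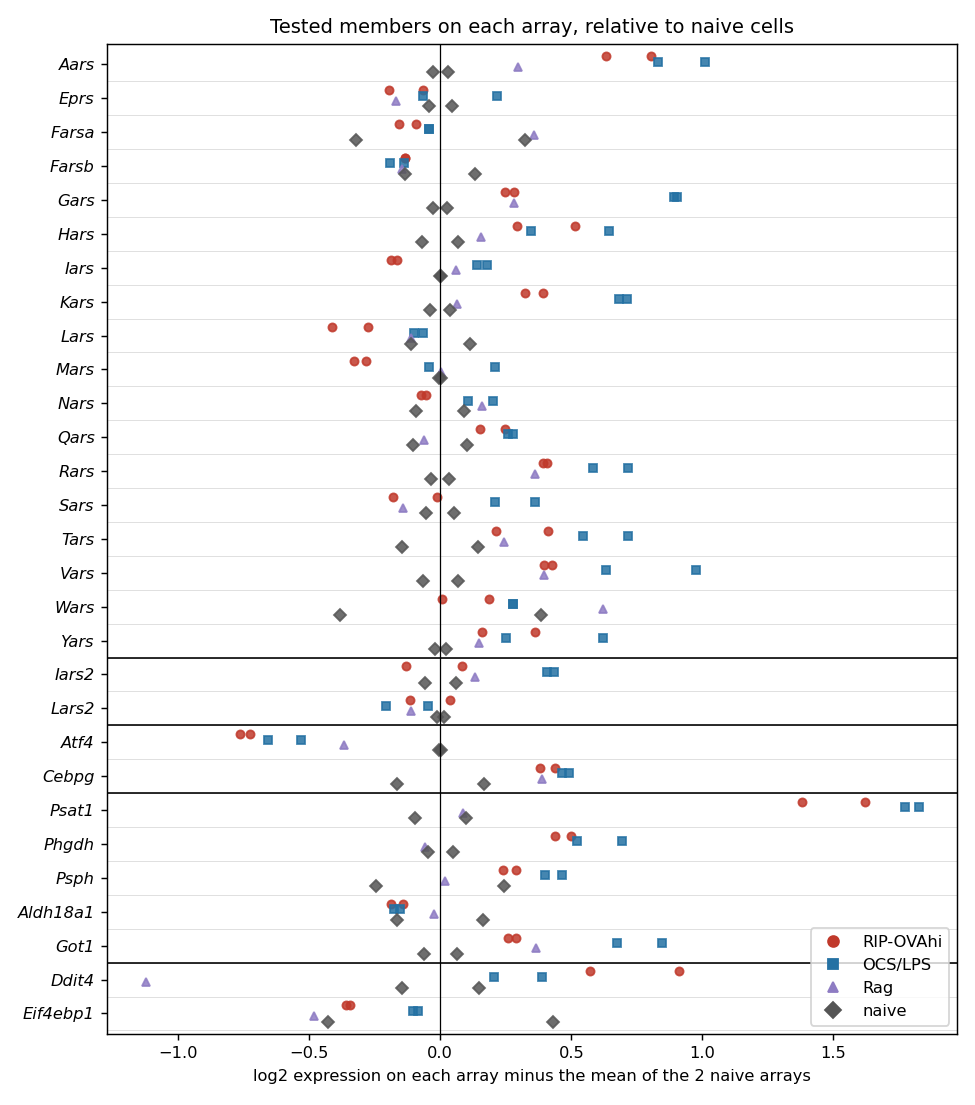
Each point is 1 array, and the horizontal axis gives its log2 expression minus the mean of the 2 naive arrays for each of the 29 tested members, grouped by role from cytosolic synthetases at the top to stress genes at the bottom. The OCS/LPS squares of Gars, Kars, Rars, Tars and Vars lie right of every RIP-OVAhi circle, Psat1 lies far right in both, and Atf4 lies left of 0 in both.

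The RefSeq promoter windows of the members, 250 bases before to 50 after each gene start in GRCm38.p6, were searched on both strands for TGATGNAA, the core of the composite element that ATF4 and C/EBP partners are known to bind. A window was found for 32 members, and 11 of them held the element, or 34.4% of the 32, beside 4.51% of the 27025 genes with a window. The list was drawn up to hold genes linked to ATF4, so the higher share may follow from that choice. It is not a result from these arrays. A match of each tested member that holds the element is shown because these members include 4 of the 9 that rose in OCS/LPS cells. Asns is added as the textbook gene of this element. Each line gives 30 bases, 5′ to 3′ on the strand that reads TGATGNAA, with the element in capitals.
Gars, chr6:55037960-55037989, minus strand, 30 bases upstream of the start: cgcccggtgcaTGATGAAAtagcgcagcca
Aars, chr8:111033840-111033869, minus strand, just past the start: tcagagcgctcTGATGAAAagtgacccgct
Tars, chr15:11399655-11399684, plus strand, 15 bases upstream: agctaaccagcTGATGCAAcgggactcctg
Iars, chr13:49682126-49682155, minus strand, just past the start: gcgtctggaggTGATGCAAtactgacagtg
Yars, chr4:129189895-129189924, plus strand, just past the start: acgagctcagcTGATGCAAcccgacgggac
Got1, chr19:43524689-43524718, plus strand, 102 bases upstream: ggaggcttgtaTGATGCAAccaatgcaatg
Asns, chr6:7693214-7693243, minus strand, 23 bases upstream: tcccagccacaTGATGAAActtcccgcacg

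The other members with a match were Chac1, Trib3, Nupr1 and Pycr1. Of the 6 tested members with the element, 4 rose in OCS/LPS cells (Aars, Gars, Tars and Got1), with a median difference from naive of 0.70 and a range of 0.16 to 0.92. Of the 16 tested members with a window and no element, 3 rose and 1 fell, with a median of 0.28 and a range of -0.59 to 1.80. In RIP-OVAhi cells 1 of the 6 rose, Aars, with a median difference from naive of 0.27 over the 6 and -0.03 over the 16. All 6 lay lower in RIP-OVAhi than in OCS/LPS cells, by medians of -0.33 over the 6 and -0.15 over the 16. Psat1, with the largest difference, was among the 16. A match in a window is a description of its letters and not a binding site, and the difference between the sets with and without it was not tested.

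Among the 20 tested tRNA synthetases, 6 rose in OCS/LPS cells, all of them cytosolic enzymes, and none fell. That share, 6 of 20, is near the 32.9% of all tested genes, and 18 of the 20 are cytosolic. They were the enzymes for alanine (Aars), glycine (Gars), lysine (Kars), arginine (Rars), threonine (Tars) and valine (Vars). In RIP-OVAhi cells Aars alone rose and none fell, or 5.0% called beside 29.6% of all tested genes. That count depends on the processing: without the filter on dim genes Gars, Kars and Rars were called higher there too, and Iars lower. The median difference of the 20 from naive was 0.28 in OCS/LPS and 0.04 in RIP-OVAhi, and the RIP-OVAhi value turned to -0.09 when each array was centred on its median. OCS/LPS cells had the highest group mean for 14 of the 20 and RIP-OVAhi cells for 0 of the 20. How often each group was highest over all tested genes was not counted, so these counts cannot be set against a background.

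Gars charges the tRNA for glycine. It read 10.60 and 10.56 on the RIP-OVAhi arrays, 11.22 and 11.21 on the OCS/LPS arrays, 10.60 on the Rag array, and 10.34 and 10.29 on the naive arrays. Both OCS/LPS arrays stood above all 5 others, and the RIP-OVAhi arrays lay at the Rag value, just above naive. In OCS/LPS against naive the difference was 0.90 (SE 0.11, adjusted p = 0.00279), a fold of 1.86. In RIP-OVAhi against naive it was 0.26 (SE 0.11, adjusted p = 0.131), and Gars was not called. Without the filter on dim genes Gars was called higher there (adjusted p = 0.0198).

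Aars charges the tRNA for alanine. It read 8.67 and 8.85 in RIP-OVAhi cells, 8.87 and 9.05 in OCS/LPS cells, 8.34 in Rag, and 8.07 and 8.01 in naive cells. Every divided array lay above both naive arrays, and the higher RIP-OVAhi value came just under the lower OCS/LPS value. Aars rose by 0.72 in RIP-OVAhi (SE 0.13, adjusted p = 0.0117) and by 0.92 in OCS/LPS (SE 0.13, adjusted p = 0.00466). The RIP-OVAhi call was lost without RIP-OVAhi replicate 1 (adjusted p = 0.0577) or replicate 2 (adjusted p = 0.0967).

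Kars, the lysine enzyme, read 10.53 and 10.46 in RIP-OVAhi cells, 10.82 and 10.85 in OCS/LPS cells, 10.20 in Rag, and 10.10 and 10.17 in naive cells. The groups were stepped without overlap, with RIP-OVAhi between naive and OCS/LPS. Rars, the arginine enzyme, read 10.73 and 10.74 in RIP-OVAhi cells, 10.92 and 11.05 in OCS/LPS cells, 10.70 in Rag, and 10.37 and 10.30 in naive cells. RIP-OVAhi and Rag lay together here, between naive and OCS/LPS. Vars, the valine enzyme, read 7.93 and 7.90 in RIP-OVAhi cells, 8.14 and 8.48 in OCS/LPS cells, 7.90 in Rag, and 7.57 and 7.44 in naive cells. Its order was the same as that of Rars. Tars, the threonine enzyme, read 9.72 and 9.92 in RIP-OVAhi cells, 10.05 and 10.22 in OCS/LPS cells, 9.75 in Rag, and 9.65 and 9.36 in naive cells. The OCS/LPS arrays were again the highest, with the second RIP-OVAhi array nearest to them and the second naive array lowest.

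In OCS/LPS against naive, Kars rose by 0.70 (SE 0.11, adjusted p = 0.00709) and Rars by 0.65 (SE 0.12, adjusted p = 0.0101). Vars rose by 0.80 (SE 0.15, adjusted p = 0.0118) and Tars by 0.63 (SE 0.16, adjusted p = 0.0281). In RIP-OVAhi against naive the same genes differed by 0.36 for Kars (adjusted p = 0.0639), 0.40 for Rars (adjusted p = 0.0506), 0.41 for Vars (adjusted p = 0.0956) and 0.31 for Tars (adjusted p = 0.193), and none was called. Both Kars and Rars passed without the filter on dim genes, with the mean of all probe sets and with an intensity trend in the fit. Kars passed as well without naive replicate 2, and Rars without naive replicate 1. Without OCS/LPS replicate 2 all 4 OCS/LPS calls were lost, with adjusted p of 0.0614 for Kars, 0.0788 for Rars, 0.0742 for Vars and 0.164 for Tars. Without OCS/LPS replicate 1, Kars (adjusted p = 0.0506) and Tars (adjusted p = 0.0907) were lost. The Tars call was lost as well with centred arrays (adjusted p = 0.0606), without the filter on dim genes and with only the compared groups in the fit. Leaving out either RIP-OVAhi array or naive replicate 2 also ended it.

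The other 12 tested cytosolic synthetases were not called in either comparison. In OCS/LPS cells the nearest to the threshold were Hars, for histidine, at 0.50 (adjusted p = 0.0598) and Yars, for tyrosine, at 0.44 (adjusted p = 0.0943). Hars differed by 0.40 in RIP-OVAhi cells (adjusted p = 0.112) and Yars by 0.26 (adjusted p = 0.289). Lars, for leucine, and Mars, for methionine, had the lowest values of the family in RIP-OVAhi against naive, -0.34 (adjusted p = 0.11) and -0.31 (adjusted p = 0.139). With arrays centred on their medians both passed as lower (adjusted p = 0.0458 for Lars and 0.0497 for Mars). Wars, for tryptophan, had the widest gap between replicates of any tested synthetase, 0.77 between the naive arrays. Without naive replicate 1 it was called higher in RIP-OVAhi, at 0.48 (adjusted p = 0.0365), and in OCS/LPS, at 0.66 (adjusted p = 0.0159), and Lars was called lower in RIP-OVAhi (adjusted p = 0.035). Without naive replicate 2, Farsa, a subunit of the phenylalanine enzyme, was called lower in RIP-OVAhi (adjusted p = 0.0268) and OCS/LPS (adjusted p = 0.041), and Qars, for glutamine, was called higher in OCS/LPS (adjusted p = 0.0435).

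Of the mitochondrial synthetases in the list, Iars2 and Lars2 were tested and neither was called. Iars2, for isoleucine, read 9.33 and 9.55 in RIP-OVAhi cells, 9.90 and 9.87 in OCS/LPS cells, 9.60 in Rag, and 9.40 and 9.52 in naive cells. The OCS/LPS arrays stood above all others, by 0.42 over naive (adjusted p = 0.0547), which passed without naive replicate 2 (adjusted p = 0.0408). Lars2, for leucine, differed from naive by -0.04 in RIP-OVAhi and -0.13 in OCS/LPS. Cars, for cysteine, and Aars2, the mitochondrial alanine enzyme, were too dim to be tested. Cars reached log2 5 on 1 array, OCS/LPS replicate 2 at 5.35, and Aars2 read 4.57 to 4.78 over the 7 arrays.

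**Figure D2:**
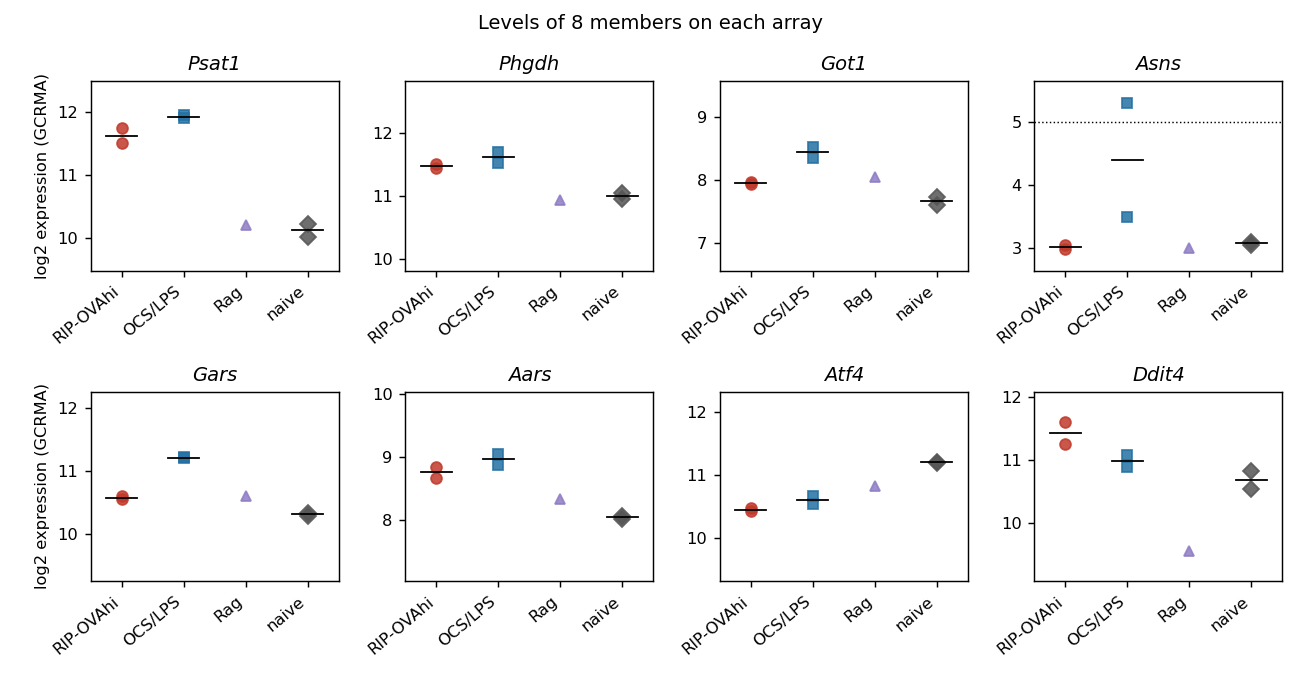
Each panel gives the log2 expression of 1 member on every array, with a bar at each mean of 2 arrays and a dotted line at log2 5 where it falls in range. Psat1 and Phgdh are raised in RIP-OVAhi and OCS/LPS, Gars and Got1 stand highest in OCS/LPS, Asns leaves the background on 1 OCS/LPS array, Atf4 is highest in naive and Ddit4 is highest in RIP-OVAhi and lowest in Rag.

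Psat1 is the aminotransferase of the phosphorylated pathway that makes serine from a glycolytic intermediate. It read 11.50 and 11.74 in RIP-OVAhi cells, 11.95 and 11.89 in OCS/LPS cells, 10.21 in Rag, and 10.03 and 10.22 in naive cells. Both antigen-driven groups stood apart from Rag and naive cells, which overlapped. Psat1 rose 2.83-fold in RIP-OVAhi (log2 difference 1.5, SE 0.14, adjusted p = 0.00115) and 3.48-fold in OCS/LPS (1.80, SE 0.14, adjusted p = 0.000491). Both calls held under every alternative that was run, with adjusted p of at most 0.0202 in RIP-OVAhi and 0.0111 in OCS/LPS. Against the Rag array Psat1 was higher by 1.42 in RIP-OVAhi (SE 0.17, adjusted p = 0.00539) and by 1.71 in OCS/LPS (SE 0.17, adjusted p = 0.00292).

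Phgdh, the dehydrogenase that opens the pathway, read 11.44 and 11.50 in RIP-OVAhi cells, 11.53 and 11.70 in OCS/LPS cells, 10.95 in Rag, and 10.96 and 11.05 in naive cells. The pattern over groups was that of Psat1 at a smaller size, with a rise of 0.47 in RIP-OVAhi (SE 0.13, adjusted p = 0.0373) and 0.61 in OCS/LPS (SE 0.13, adjusted p = 0.015). The RIP-OVAhi call was lost with the replicate block (adjusted p = 0.0507), with centred arrays (adjusted p = 0.0811) and with only the compared groups in the fit. Leaving out either RIP-OVAhi array, either OCS/LPS array or naive replicate 1 also ended it. The OCS/LPS call was lost without OCS/LPS replicate 1 (adjusted p = 0.0549) or 2 (adjusted p = 0.104). Psph, the phosphatase that ends the pathway, read 9.29 and 9.33 in RIP-OVAhi cells, 9.44 and 9.51 in OCS/LPS cells, 9.06 in Rag, and 8.80 and 9.29 in naive cells. The second naive array read within the range of the RIP-OVAhi arrays, and Psph was not called in RIP-OVAhi (0.26, adjusted p = 0.318) or OCS/LPS (0.43, adjusted p = 0.119). Without naive replicate 2 it was called in both, at 0.51 in RIP-OVAhi (adjusted p = 0.0202) and 0.68 in OCS/LPS (adjusted p = 0.00898).

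Got1, the cytosolic aspartate aminotransferase, read 7.97 and 7.94 in RIP-OVAhi cells, 8.35 and 8.52 in OCS/LPS cells, 8.04 in Rag, and 7.74 and 7.61 in naive cells. The OCS/LPS arrays were above all others, and RIP-OVAhi lay beside Rag, above naive. Got1 rose by 0.76 in OCS/LPS (SE 0.13, adjusted p = 0.00749), which was lost without OCS/LPS replicate 2 (adjusted p = 0.0657), and differed by 0.27 in RIP-OVAhi (adjusted p = 0.16). Aldh18a1, which starts proline synthesis, differed by -0.17 in RIP-OVAhi and by -0.16 in OCS/LPS cells, without a call. Gpt2, the mitochondrial alanine aminotransferase, stayed near background at 2.81 to 2.97 on the 7 arrays.

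Asns, the asparagine synthetase and the best known ATF4 target of amino acid shortage, read 2.99 and 3.05 in RIP-OVAhi cells, 3.5 and 5.31 in OCS/LPS cells, 3.0 in Rag, and 3.05 and 3.11 in naive cells. One array, OCS/LPS replicate 2, stood out, and the other 6 were near background, so Asns failed the filter and has no test. Its second probe set read 2.40 and 4.07 in OCS/LPS and between 2.18 and 2.21 on the 5 other arrays. OCS/LPS replicate 2 was the higher of the pair in both probe sets. The same array was the only one on which Cars reached log2 5, and it was lower than replicate 1 in 6 of the 20 tested synthetases.

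The RNA of Atf4 itself was lower in the antigen-driven groups than in naive cells. It read 10.44 and 10.48 in RIP-OVAhi cells, 10.67 and 10.55 in OCS/LPS cells, 10.83 in Rag, and 11.21 and 11.20 in naive cells. All 5 divided arrays lay below both naive arrays, with Rag between. Atf4 fell by 0.74 in RIP-OVAhi (SE 0.12, adjusted p = 0.00664) and by 0.59 in OCS/LPS (SE 0.12, adjusted p = 0.0129). The 2 probe sets of Atf4 above background differed. The brighter one, used here, gave those values, while the other gave -0.11 in RIP-OVAhi (adjusted p = 0.653) and 0.03 in OCS/LPS (adjusted p = 0.906) when each probe set was tested on its own, so the fall rests on 1 probe set. With the mean of all its probe sets Atf4 was not called (adjusted p = 0.0978 in RIP-OVAhi and 0.189 in OCS/LPS). The RIP-OVAhi call was lost without RIP-OVAhi replicate 1 (adjusted p = 0.0634) or 2 (adjusted p = 0.0589), and the OCS/LPS call without OCS/LPS replicate 1 (adjusted p = 0.0562) or 2 (adjusted p = 0.0935).

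Cebpg, a partner of ATF4, read 8.74 and 8.68 in RIP-OVAhi cells, 8.79 and 8.77 in OCS/LPS cells, 8.69 in Rag, and 8.47 and 8.13 in naive cells. Every divided array lay above both naive arrays, by 0.41 in RIP-OVAhi (adjusted p = 0.0869) and 0.48 in OCS/LPS (adjusted p = 0.0529), without a call. Without naive replicate 1 it was called in RIP-OVAhi at 0.58 (adjusted p = 0.0147) and in OCS/LPS at 0.64 (adjusted p = 0.0105). Cebpb, another C/EBP factor, stayed near background at 3.52 to 4.41.

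The stress targets of ATF4 in the list were mostly near background. Trib3, a pseudokinase that restrains ATF4, read 3.13 and 3.16 in RIP-OVAhi cells, 3.30 and 3.15 in OCS/LPS cells, 3.47 in Rag, and 3.13 and 3.18 in naive cells. Chac1, which breaks down glutathione, read 2.02 and 2.03 in RIP-OVAhi cells, 2.02 and 2.02 in OCS/LPS cells, 2.02 in Rag, and 2.03 and 2.05 in naive cells. Sesn2, a leucine sensor that restrains the growth kinase mTORC1, read 4.35 and 4.68 in RIP-OVAhi cells, 4.35 and 4.34 in OCS/LPS cells, 4.34 in Rag, and 4.37 and 4.38 in naive cells. None of these 3, nor Nupr1 at 3.22 to 3.48, reached log2 5 on any array, and they were not tested. GCRMA compresses values at the background, so small changes of such genes cannot be read here.

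Ddit4, an inhibitor of mTORC1 also known as REDD1, was the exception. It read 11.59 and 11.25 in RIP-OVAhi cells, 10.89 and 11.07 in OCS/LPS cells, 9.56 in Rag, and 10.83 and 10.54 in naive cells. RIP-OVAhi was the highest group without overlap, and the Rag array was the lowest of all. Ddit4 rose by 0.74 in RIP-OVAhi against naive (SE 0.18, adjusted p = 0.027) and differed by 0.30 in OCS/LPS (SE 0.18, adjusted p = 0.252). Its rise did not pass without the filter on dim genes or with only the compared groups in the fit. The RIP-OVAhi call was lost without RIP-OVAhi replicate 1 (adjusted p = 0.159) or 2 (adjusted p = 0.0688), without either OCS/LPS array (adjusted p = 0.0651) and without naive replicate 2 (adjusted p = 0.0639). Against Rag it was higher by 1.86 in RIP-OVAhi (SE 0.22, adjusted p = 0.00456) and by 1.42 in OCS/LPS (SE 0.22, adjusted p = 0.011), the second lost without OCS/LPS replicate 1 (adjusted p = 0.0583) or 2 (adjusted p = 0.0828). Eif4ebp1, the translation repressor that mTORC1 switches off, read 6.29 and 6.28 in RIP-OVAhi cells, 6.54 and 6.55 in OCS/LPS cells, 6.16 in Rag, and 6.21 and 7.07 in naive cells. Its naive arrays lay 0.86 apart, the widest replicate gap of any tested member, and it was not called. Without naive replicate 1 it was called lower, at -0.78 in RIP-OVAhi (adjusted p = 0.00691) and -0.52 in OCS/LPS (adjusted p = 0.0161), and without naive replicate 2 it was called higher in OCS/LPS, at 0.33 (adjusted p = 0.0471).

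Tolerance and priming were then set against each other directly, since both groups had met the antigen and had divided for the same 60 h. Gars was the only member of the 29 to be called, lower in RIP-OVAhi by 0.63 (SE 0.11, adjusted p = 0.0472), or 1.55-fold higher in OCS/LPS, where 2.91% of all tested genes were called, 1.61% higher and 1.3% lower. On the arrays, given above, the groups lay further apart than the replicates within each. That call was lost with the replicate block (adjusted p = 0.0889), with arrays centred on their medians (adjusted p = 0.064), and without RIP-OVAhi replicate 1 (adjusted p = 0.314) or 2 (adjusted p = 0.349) or OCS/LPS replicate 1 (adjusted p = 0.264) or 2 (adjusted p = 0.311). The difference itself stayed between -0.65 and -0.61 under all of these.

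Across the list 3 of the 29 members had a higher mean in RIP-OVAhi than in OCS/LPS, beside 41.9% of all tested genes. The 3 were Ddit4, Lars2 and Farsb. The arrays of both groups did not overlap for 22 members that were lower in RIP-OVAhi, beside 34.0% of all tested genes, and for 2 members that were higher, beside 23.5%. The median difference was -0.21 over the 29 and -0.24 over the 20 synthetases, beside -0.05 over all tested genes, and -0.18 over the 29 after centring. After Gars the sizes that came next were Got1 at -0.49 (SE 0.13, adjusted p = 0.138), Iars2 at -0.44 (SE 0.13, adjusted p = 0.177), Vars at -0.39 (adjusted p = 0.282), Mars at -0.39 (adjusted p = 0.231) and Sars, for serine, at -0.38 (adjusted p = 0.235). Psat1 differed by -0.30 (adjusted p = 0.382) and Phgdh by -0.14 (adjusted p = 0.661). Ddit4 stood at the other end, at 0.44 (SE 0.18, adjusted p = 0.295). None of these passed the test one by one.

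**Figure D3:**
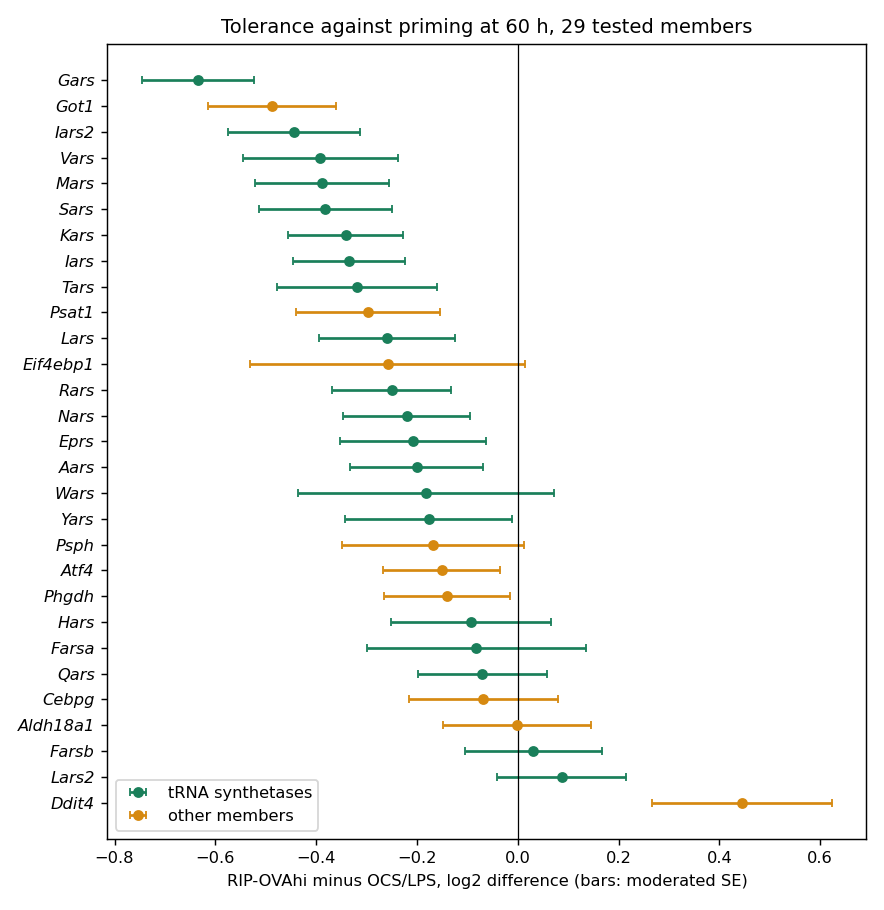
Points give the RIP-OVAhi minus OCS/LPS log2 difference of each tested member, ordered by size, with bars of 1 moderated SE. Gars lies furthest left at -0.63, 26 of the 29 points lie left of 0, and Ddit4 lies furthest right at 0.44.

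Other values differed between these groups too. The summed level of the 6 MHC class II and dendritic cell markers was 5.82 to 6.0 in RIP-OVAhi and 7.71 to 8.44 in OCS/LPS, with 9.18 in Rag and 7.72 to 7.75 in naive. That of the 7 macrophage and myeloid markers was 6.18 to 6.43 in RIP-OVAhi and 8.09 to 8.72 in OCS/LPS, with 9.99 in Rag and 8.42 to 9.09 in naive. None of these markers reached log2 5 in RIP-OVAhi. Of the 6 MHC class II and dendritic cell markers, 4 averaged log2 5 or more in OCS/LPS, Rag and naive. Of the 7 myeloid markers, 2 did in OCS/LPS and naive, Lyz1 and Lyz2, and 5 did in Rag. Those of these markers that reached log2 5 thus did so on spleen arrays only. The B and plasma cell marker Jchain read 8.01 and 8.45 in OCS/LPS cells and 7.07 and 6.935 in naive cells. It read 1.65 and 2.28 in RIP-OVAhi cells and 1.65 in Rag. Cd79b, of the same list, read 7.89 and 8.43 in RIP-OVAhi cells and was not lower there. The 5 division markers summed to 13.7 to 13.8 in RIP-OVAhi and 14.1 to 14.3 in OCS/LPS, with 11.5 in Rag and 7.79 to 8.41 in naive. The part of carried-over transcripts, of division and of RNA quality in the differences above was not tested.

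In Rag cells, whose division was driven by lymphopenia, no member was called against naive cells in limma, beside 2.73% of all tested genes. At an unadjusted p under 0.05 in limma, 3 members of the 29 differed, Rars higher and Atf4 and Ddit4 lower. The share of all tested genes at that threshold was not counted, so these 3 cannot be set against a background. The Rag group is 1 array, assumed to vary like the others. The median difference of the 29 was 0.06, beside 0.04 over all tested genes. Ddit4 had the largest value, -1.12 (SE 0.22, adjusted p = 0.0637), and passed as lower with arrays centred (adjusted p = 0.047), with an intensity trend in the fit (adjusted p = 0.0498) and without naive replicate 1 (adjusted p = 0.0445). Without naive replicate 1, which left 1 naive array against 1 Rag array, Farsa, Wars and Cebpg also passed as higher and Eif4ebp1 as lower. The number of all genes called moved widely too when an array was left out, so this is not a result about the members. Wars differed by 0.62 (adjusted p = 0.364) and Rars by 0.36 (adjusted p = 0.272).

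Against the Rag array, RIP-OVAhi cells had 2 members called, Psat1 and Ddit4, both higher, beside 16.7% of all tested genes called and 9.84% called higher. OCS/LPS cells had 6 called, all higher, beside 18.1% of all tested genes called and 11.2% called higher. These were Psat1 and Ddit4, given above, with Phgdh at 0.67 (adjusted p = 0.035), Kars at 0.63 (adjusted p = 0.0313), Aars at 0.62 (adjusted p = 0.0495) and Gars at 0.62 (adjusted p = 0.0317). With the replicate block the last 4 were lost, with adjusted p of 0.0778 for Phgdh, 0.0744 for Kars, 0.106 for Aars and 0.0686 for Gars. They were lost as well without either OCS/LPS array (adjusted p of 0.1 to 0.2) and without either RIP-OVAhi array (adjusted p of 0.0866 to 0.104). Without either naive array, Farsa and Wars were called lower and Phgdh higher in RIP-OVAhi, and Farsa was called lower and Psph and Eif4ebp1 higher in OCS/LPS. With centred arrays the OCS/LPS calls of Kars, Aars and Gars against Rag were lost. That of Aars was lost as well without the filter on dim genes and with the mean of all probe sets. Time after transfer also differed, at 60 h against 5 days.

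Several members have more than 1 probe set, and these did not always move alike. Testing every probe set with 1 symbol on its own, an alternative chosen after seeing the data, at least 1 probe set was called for 8 members in RIP-OVAhi against naive, beside 36.2% of genes, and for 15 in OCS/LPS, beside 41.1%. In RIP-OVAhi against OCS/LPS it was 0 members, beside 2.73%. The second probe set of Psat1 gave 2.05 in RIP-OVAhi (adjusted p = 0.000441) and 2.54 in OCS/LPS (adjusted p = 0.00016), larger than the first. That of Aars gave 1.05 (adjusted p = 0.0242) and 1.40 (adjusted p = 0.00857) in the same order of groups. For Hars, not called through its brightest probe set, the other gave 0.66 in RIP-OVAhi (adjusted p = 0.0278) and 0.95 in OCS/LPS (adjusted p = 0.00802). For Iars, the isoleucine enzyme, the dimmer probe set rose by 1.08 in OCS/LPS (adjusted p = 0.018) and differed by 0.32 in RIP-OVAhi (adjusted p = 0.337).

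Probe sets of Eprs and Farsb differed from the ones used. Eprs makes the fused enzyme for glutamate and proline. One of its dimmer probe sets read 8.54 and 8.54 in RIP-OVAhi cells, 8.99 and 9.19 in OCS/LPS cells, 9.13 in Rag, and 9.43 and 9.57 in naive cells, and it fell by 0.96 in RIP-OVAhi (adjusted p = 0.00573), while the one used gave -0.13. Another gave -0.57 in RIP-OVAhi (SE 0.17, adjusted p = 0.0597). Farsb makes a subunit of the phenylalanine enzyme. Its dimmest probe set read 6.17 and 5.56 in RIP-OVAhi cells, 5.48 and 5.58 in OCS/LPS cells, 3.52 in Rag, and 3.82 and 2.46 in naive cells. That is near background in Rag and naive cells and above it in both antigen-driven groups, through which alone it passed the filter. With the naive level set to log2 5 it was at least 1.82-fold higher in RIP-OVAhi and at least 1.45-fold higher in OCS/LPS. The limma calls (adjusted p = 0.00925 and 0.0125) belong to the measured differences, which reach into the background, and the bounds were not tested. The 3 brighter probe sets of Farsb had no call. Which transcripts these probe sets detect was not examined here.

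**Figure D4:**
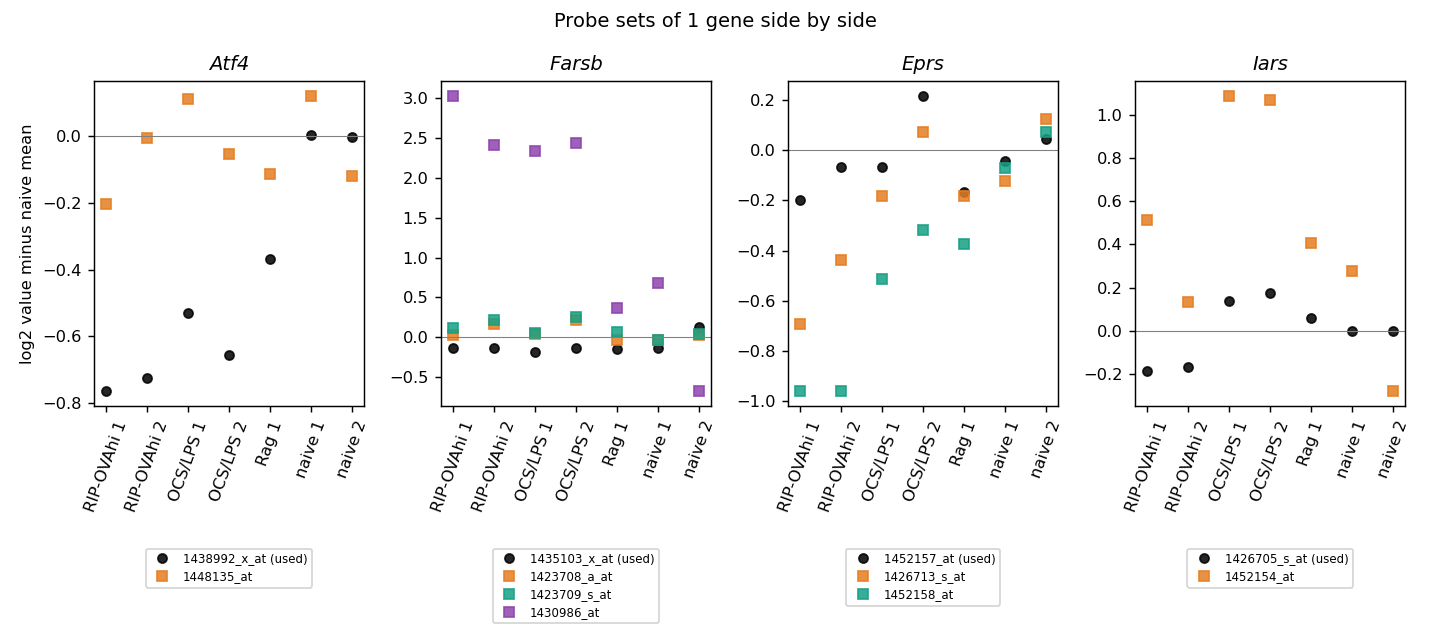
The log2 value of each tested probe set on every array is given relative to its own naive mean, for Atf4, Farsb, Eprs and Iars, with black circles for the probe set used and coloured squares for the others. The used and the second probe set of Atf4 part in the divided cells, 1 probe set of Farsb lies above 2 in RIP-OVAhi and OCS/LPS, 1 of Eprs lies near -0.96 in RIP-OVAhi, and 1 of Iars lies near 1.08 in OCS/LPS.

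Other genes of the same pathways were counted in 7 lists, none of which had a call in RIP-OVAhi against OCS/LPS or in Rag against naive. Over all tested genes 2.91% and 2.73% were called in these comparisons. In lists this short the absence of calls does not show equal levels. Of 14 tested genes of amino acid and one-carbon metabolism, 3 rose and 1 fell in RIP-OVAhi against naive, and 5 rose and 0 fell in OCS/LPS. The shares called were 28.6% and 35.7%, near the 29.6% and 32.9% of all tested genes. Mthfd2, the mitochondrial one-carbon enzyme next to serine synthesis, rose by 1.24 in RIP-OVAhi (SE 0.15, adjusted p = 0.00256) and 1.73 in OCS/LPS (SE 0.15, adjusted p = 0.000604). Bcat1, the cytosolic branched-chain aminotransferase, averaged 5.5 in RIP-OVAhi and 6.29 in OCS/LPS cells (log2) and was near background in naive and Rag cells, so it was tested only through the groups where it was high. With the naive level set to log2 5 it was at least 1.41-fold higher in RIP-OVAhi and at least 2.45-fold higher in OCS/LPS. The limma calls (adjusted p = 0.00642 and 0.00216) belong to the measured differences, which reach into the background, and the bounds were not tested. Got2, the mitochondrial partner of Got1, rose by 0.92 in RIP-OVAhi (adjusted p = 0.00338) and 1.28 in OCS/LPS (adjusted p = 0.000847). Shmt2, which hands the serine carbon to mitochondrial folate, fell by 0.72 in RIP-OVAhi (adjusted p = 0.0129) and differed by -0.35 in OCS/LPS (adjusted p = 0.0992). The RIP-OVAhi calls of Bcat1 and Shmt2 were lost without RIP-OVAhi replicate 1, and that of Shmt2 also without replicate 2.

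Of 8 tested amino acid transporters, 2 rose and 2 fell in RIP-OVAhi, and 1 rose and 2 fell in OCS/LPS, or 4 and 3 of the 8 called beside 29.6% and 32.9% of all tested genes. Slc36a4, a proline and tryptophan carrier, rose by 1.32 in RIP-OVAhi (adjusted p = 0.00474) and 1.18 in OCS/LPS (adjusted p = 0.0062). Slc3a2, the heavy chain of the large neutral amino acid carrier, fell by 0.78 in RIP-OVAhi (adjusted p = 0.00528) and by 0.80 in OCS/LPS (adjusted p = 0.00438). Slc38a2, a glutamine and alanine carrier, fell by 0.58 in RIP-OVAhi (adjusted p = 0.0227) and by 0.63 in OCS/LPS (adjusted p = 0.0162). The calls of Slc38a2 were lost without either array of the group in question, as were those of Slc3a2 in RIP-OVAhi, and that of Slc36a4 in RIP-OVAhi was lost without RIP-OVAhi replicate 2.

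Of 8 tested stress genes linked to ATF4, 1 rose and 2 fell in RIP-OVAhi, and 1 rose and 3 fell in OCS/LPS, or 3 and 4 of the 8 called beside 29.6% and 32.9% of all tested genes. Jdp2, a bZIP repressor, averaged 7.20 in RIP-OVAhi and 7.31 in OCS/LPS cells and was near background in naive and Rag cells, so it too was tested only through the groups where it was high. With the naive level set to log2 5 it was at least 4.59-fold higher in RIP-OVAhi and at least 4.97-fold higher in OCS/LPS. The limma calls (adjusted p = 0.00323 and 0.00254) belong to the measured differences, which reach into the background. The bounds were not tested. Bbc3, which makes the death protein PUMA, averaged 4.91 in RIP-OVAhi and 4.82 in OCS/LPS cells, near background, against 6.91 in naive cells. With the lower level set to log2 5 it was at least 3.75-fold lower in RIP-OVAhi and in OCS/LPS. Its limma calls (adjusted p = 0.000469 and 0.00034) likewise belong to the measured differences and not to this bound. Ddit3, which makes the stress factor CHOP, fell by 1.0 in OCS/LPS (SE 0.20, adjusted p = 0.0131), which was lost without OCS/LPS replicate 2, and differed by -0.54 in RIP-OVAhi (adjusted p = 0.0936).

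Of 14 tested eIF2 kinases, phosphatases and subunits, 0 rose and 2 fell in RIP-OVAhi, and 3 rose and 1 fell in OCS/LPS, or 14.3% and 28.6% called beside 29.6% and 32.9% of all tested genes. Eif2b1 and Eif2b5, subunits of the exchange factor that recharges eIF2, rose by 0.83 (adjusted p = 0.0055) and 0.72 (adjusted p = 0.00865) in OCS/LPS, both lost without OCS/LPS replicate 2. Eif2b3, another subunit, fell by 0.93 in RIP-OVAhi (adjusted p = 0.0181). Impact, an inhibitor of the amino acid sensing kinase GCN2, fell by 0.78 in RIP-OVAhi (adjusted p = 0.00923) and by 0.53 in OCS/LPS (adjusted p = 0.0294). The calls of Eif2b3 and Impact were lost without either array of the group in question. Of 14 other mitochondrial synthetases, 1 rose in RIP-OVAhi, Fars2 at 0.59 (adjusted p = 0.0408), and 0 were called in OCS/LPS. Of 5 scaffold proteins and related genes, Yrdc, which modifies tRNA, fell by 0.64 in RIP-OVAhi (adjusted p = 0.0329) and Tarsl2, a relative of Tars, rose by 1.02 in OCS/LPS (adjusted p = 0.0132). The calls of Fars2 and Yrdc were lost without any 1 of the RIP-OVAhi or OCS/LPS arrays, that of Fars2 also without either naive array and that of Yrdc with the replicate block (adjusted p = 0.0501), and that of Tarsl2 without OCS/LPS replicate 2. Of 8 mTORC1 inhibitors and sensors outside the list, 1 fell in RIP-OVAhi and 2 fell in OCS/LPS, with Sesn1, a relative of Sesn2, at -0.66 (adjusted p = 0.0105) and -0.65 (adjusted p = 0.0103) in that order, both lost without either array of the group in question.

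**Figure D5:**
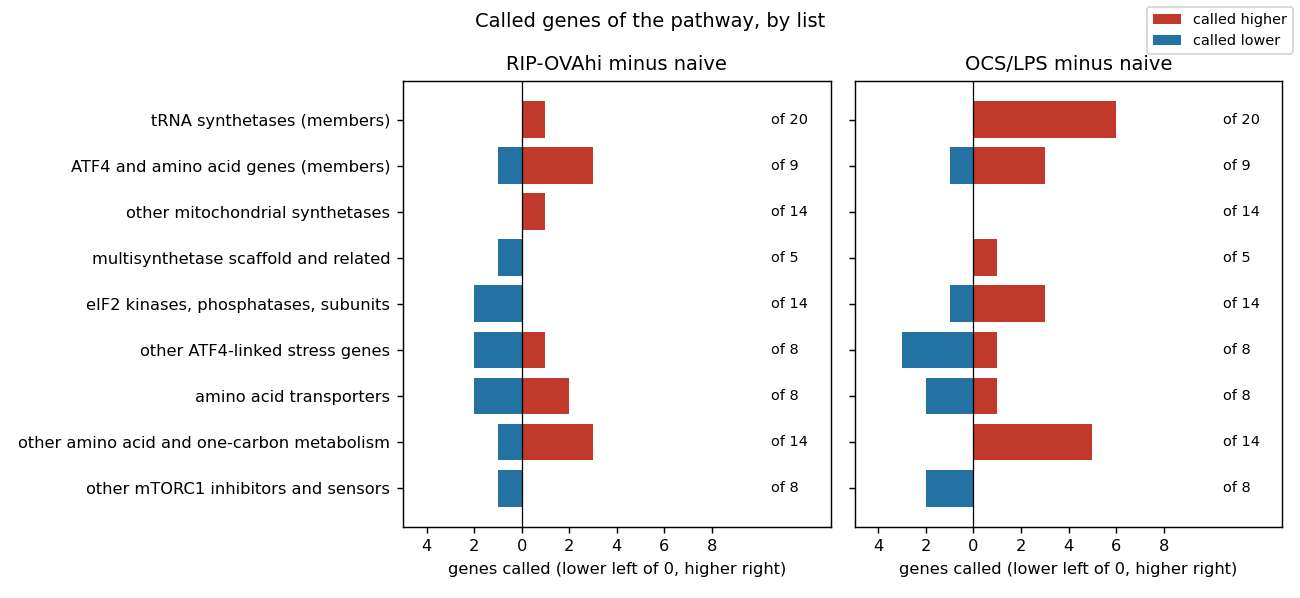
Bars count the genes called lower (left of 0) and higher (right of 0) against naive cells in each list, for RIP-OVAhi on the left panel and OCS/LPS on the right, with the number tested at the right edge. The tRNA synthetases have 1 of 20 genes called higher in RIP-OVAhi and 6 of 20 in OCS/LPS, and none lower. The remaining lists have at most 5 in any direction but hold fewer tested genes, so bar lengths do not compare shares. Amino acid and one-carbon metabolism has 5 of 14 called in OCS/LPS, and the stress genes have 4 of 8. Over all tested genes 29.6% were called in RIP-OVAhi and 32.9% in OCS/LPS.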

How the data were processed

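The deposited table gives log2 values for 45101 probe sets on 7 arrays. The authors made them with GCRMA, per the submitters' processing notes, in a version not given in the sources used here. This method corrects background from probe sequences and quantile-normalizes, so a shift shared by most genes is not visible. Per the labels' protocols, total RNA was amplified in 2 cycles before labelling. The platform annotation gave 1 symbol for 34958 probe sets, several for 932 and none for 9211, and only the first kind was used. RefSeq (GRCm38.p6) held the Entrez identifier of 34754 of them. Each of 18194 genes was represented by its brightest probe set, and the 8203 with log2 of at least 5 on at least 2 arrays were tested.

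One model with a mean per group was fitted to all 7 arrays in limma 3.58.1 under R 4.3.3, with 3 residual and 2.93 prior degrees of freedom. Tests were two-sided, with Benjamini-Hochberg adjustment over all tested genes. Comparisons that share the naive or Rag arrays are not independent of each other. The step was tested on simulated data with known changes. Alternatives were no filter, a floor of 6, the mean of all probe sets, arrays centred on their medians, an intensity trend, a replicate block, a fit of the compared groups alone, each replicate left out, and every probe set tested on its own (added after seeing the data).

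The deviations of arrays with the same replicate number from their group means correlated across genes at 0.32 (RIP-OVAhi with OCS/LPS), 0.35 (RIP-OVAhi with naive) and 0.13 (OCS/LPS with naive), which was taken as pairing. On autosomal genes alone the values were -0.02, 0.20 and -0.06, so much of it came from sex-linked genes. Pairing by replicate number is therefore uncertain. The main fit did not use it, and the replicate block is given as an alternative.

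The members and the lists were chosen with earlier results of these data known. Values on every array are given for members called with a log2 difference of at least 0.5 and for Atf4, Asns, Trib3, Chac1, Ddit4 and Sesn2, and for further members where the text turns on them, chosen after their values were seen. Up to 4 called genes are named from each pathway list. Of the marker lists not summed above, CD4 T cells (3 genes) and pancreas (4 with a probe set) had no member at log2 5 or more. Of 5 B and plasma cell markers, 1 reached it in RIP-OVAhi and Rag and 3 in OCS/LPS and naive. Of 2 erythroid markers, 1 reached it in Rag and 0 in the other groups. A further sequence is not reported here.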

Additional observations from a re-analysis of the deposited data

Results flagged for a closer look

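Gars stood out because its level differed between RIP-OVAhi and OCS/LPS cells when that difference was tested. These groups also differed in tissue and in the use of lipopolysaccharide. Gars alone of the 29 members was called, or 3.45%, beside 2.91% of all tested genes. RIP-OVAhi minus OCS/LPS was -0.63 (SE 0.11, limma adjusted p = 0.0472), and the difference had the same sign for both RIP-OVAhi arrays against both OCS/LPS arrays. Across the alternatives its adjusted p ran from 0.0151 to 0.349.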

How the results depend on the processing

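In RIP-OVAhi against naive, 5 members became 8 without the filter, 9 with the mean of all probe sets, 3 with only the compared groups and 8 with every probe set tested, and all genes called became 1601 with only the compared groups, against 2429. In Rag against naive, 0 became 1 with centred arrays and 1 with an intensity trend. In RIP-OVAhi against OCS/LPS, 1 became 2 without the filter, and 0 with centred arrays, the replicate block or every probe set tested, while all genes called went to 105 without the filter and 416 with only the compared groups, against 239. In RIP-OVAhi against Rag, 2 became 4 with every probe set tested. In OCS/LPS against Rag, 6 became 3 with centred arrays and 2 with the replicate block. In the fit with the replicate block, RIP-OVAhi against naive kept 4 members and OCS/LPS against naive 10. Over the 6 comparisons the block ended 6 calls, each given in the report.

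With each array left out in turn, called members ranged from 1 to 9 in RIP-OVAhi against naive, 3 to 14 in OCS/LPS against naive, 0 to 5 in Rag against naive, 0 to 1 in RIP-OVAhi against OCS/LPS, 2 to 5 in RIP-OVAhi against Rag and 1 to 9 in OCS/LPS against Rag. The genes called ranged from 807 to 3281, 1018 to 3646, 59 to 1622, 32 to 416, 370 to 2549 and 397 to 2833 in the same order. A group left with 1 array was assumed to vary like the others. The lowest member counts against naive came without a RIP-OVAhi array (1) and without OCS/LPS replicate 2 (3), and the highest without naive replicate 1 (9) and naive replicate 2 (14). Signs turned, and a call was gained, for Farsb with the mean of all probe sets, at 0.71 in RIP-OVAhi (adjusted p = 0.01) and 0.63 in OCS/LPS (adjusted p = 0.0138) against naive. Eif4ebp1 in OCS/LPS against naive was called at -0.52 without naive replicate 1 (adjusted p = 0.0161) and at 0.33 without naive replicate 2 (adjusted p = 0.0471). The mean for Farsb took in its dimmest probe set, at 2.72 in RIP-OVAhi and 2.39 in OCS/LPS from a naive level near background. Its other probe sets lay between -0.17 and 0.16 in both groups. The naive arrays of Eif4ebp1 read 6.21 and 7.07. Why these probe sets and these naive arrays differed was not tested. With 2 arrays a group and 1 for Rag, a missed threshold does not show equal levels.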
